A study of Mus musculus with 2 samples.

Results

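The CpGs described here were those read very deeply in mouse embryonic fibroblasts (MEFs): positions with at least 300 methylation calls in the Dnmt1+/+ library and at least 300 in the Dnmt1-/- library, outside the stretch chr17:39975001-39990001. They were chosen by depth, apart from the 324 CpGs of that stretch, which passed the same limit and were left out by position. There were 517 such deep CpGs among the 1790826 CpGs of the table, and they lay in 100 clusters when deep CpGs up to 500 bp apart were joined. Depth is therefore a description here and carries no test. The assay was reduced-representation bisulfite sequencing (RRBS) in an extended-coverage form, in which DNA is cut with restriction enzymes, treated with bisulfite and sequenced, and a cytosine still read as cytosine counts as methylated. Each genotype had 1 library, from cultured MEFs that were either Dnmt1+/+ or Dnmt1-/-. The study describes the Dnmt1-/- cells as viable cells homozygous for a hypomorphic Dnmt1 allele, and both genotypes as trp53-/-. The comparison set was the 1639323 CpGs with fewer than 100 calls in both libraries. All coordinates are 1-based on NCBIM37 (mm9) and all sequences are the plus strand of that assembly.

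Dnmt1 is the maintenance methyltransferase, which copies CpG methylation onto the new strand after DNA replication. Repeated DNA, such as the satellite arrays beside centromeres, holds much of the methylated CpG of the mouse genome, and the assembly holds fewer copies of such arrays than a cell does, so that reads from many copies can be placed on few positions. Ribosomal RNA genes are repeated in tandem arrays and nuclear copies of mitochondrial DNA are scattered through the chromosomes. The enzymes MspI and TaqI cut at CCGG and TCGA. The enzymes used for these libraries are not given in the sources used here. CpGs in CCGG or TCGA are set apart below, and the remainder are called other CpGs, because their values stood apart: deep CpGs in CCGG or TCGA averaged 52.7% in Dnmt1-/- and other deep CpGs 11.8%. In the comparison set these means were 57.2% and 16.1%. The cause was not tested.

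The sequences below are stretches of some of the clusters described here, and the capitals mark the CpGs that were deep. The first line is a 234-base unit of a tandem repeat near the start of chromosome 9. The second is a stretch of the most populated cluster, on chromosome 2, where the stretch shown holds that repeat in the opposite orientation.

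Tandem repeat unit, chr9:3027616-3027849: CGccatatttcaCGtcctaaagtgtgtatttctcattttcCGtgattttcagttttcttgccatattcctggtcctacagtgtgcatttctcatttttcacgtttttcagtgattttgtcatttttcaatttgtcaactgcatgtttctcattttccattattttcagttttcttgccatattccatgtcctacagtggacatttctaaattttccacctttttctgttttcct

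Cluster of most deep CpGs, over Gm10800, chr2:98506819-98507118: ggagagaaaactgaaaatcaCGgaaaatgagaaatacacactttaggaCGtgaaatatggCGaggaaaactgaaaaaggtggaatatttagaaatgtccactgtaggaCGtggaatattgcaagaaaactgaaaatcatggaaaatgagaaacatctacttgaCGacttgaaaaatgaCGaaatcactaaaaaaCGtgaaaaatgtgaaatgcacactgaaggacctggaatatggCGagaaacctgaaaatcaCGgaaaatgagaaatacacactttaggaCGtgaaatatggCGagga

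The next lines hold clusters whose CpGs outside CCGG and TCGA were low in both libraries, and 1 counterpart that was not low in Dnmt1+/+. They are a stretch like mitochondrial DNA, a stretch like the 45S ribosomal RNA gene with the matching bases of chromosome 17 (capitals there mark the matching CpGs), and 4 of the deepest clusters.

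Mitochondrial-like, chr2:22445035-22445281: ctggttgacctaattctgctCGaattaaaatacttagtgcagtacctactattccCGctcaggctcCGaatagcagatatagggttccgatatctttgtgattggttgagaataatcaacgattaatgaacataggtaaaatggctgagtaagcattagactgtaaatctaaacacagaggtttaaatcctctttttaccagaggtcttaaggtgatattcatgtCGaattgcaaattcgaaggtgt

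45S-like, chr6:3151402-3151516: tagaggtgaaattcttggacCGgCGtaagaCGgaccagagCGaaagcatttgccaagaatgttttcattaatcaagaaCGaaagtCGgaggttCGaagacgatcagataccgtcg

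Chromosome 17 counterpart, chr17:39984258-39984372: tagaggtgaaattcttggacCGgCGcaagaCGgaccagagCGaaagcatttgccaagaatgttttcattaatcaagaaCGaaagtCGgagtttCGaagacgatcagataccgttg

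Intergenic, nearest start Gm11668, chr11:108873070-108873263: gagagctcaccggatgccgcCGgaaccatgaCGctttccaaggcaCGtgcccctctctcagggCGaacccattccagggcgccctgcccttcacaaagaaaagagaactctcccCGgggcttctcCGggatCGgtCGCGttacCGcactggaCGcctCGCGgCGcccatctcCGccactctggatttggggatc

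Over mmu-mir-2134-4, chr13:9833545-9833735: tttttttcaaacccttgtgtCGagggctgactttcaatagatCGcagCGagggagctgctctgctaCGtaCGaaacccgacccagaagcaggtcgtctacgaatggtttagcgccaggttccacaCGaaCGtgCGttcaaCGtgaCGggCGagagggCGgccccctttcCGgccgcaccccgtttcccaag

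Zc3h7a, at mmu-mir-689-2, chr16:11144123-11144235: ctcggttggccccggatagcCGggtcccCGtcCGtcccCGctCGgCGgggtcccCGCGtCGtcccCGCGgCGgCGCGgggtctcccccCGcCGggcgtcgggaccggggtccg

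Filip1l intron, chr16:57391455-57391650: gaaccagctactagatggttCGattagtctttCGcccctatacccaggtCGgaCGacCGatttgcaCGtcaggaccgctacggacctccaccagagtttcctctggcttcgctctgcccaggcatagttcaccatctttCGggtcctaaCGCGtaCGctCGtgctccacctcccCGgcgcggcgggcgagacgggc

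The last line is a stretch of Mid1 at the distal end of the X chromosome, where methylation was lost almost wholly in the Dnmt1-/- library.

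Mid1, chrX:166424772-166424834: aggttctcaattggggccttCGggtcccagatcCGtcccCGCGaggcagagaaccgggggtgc

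The deep CpGs were 0.289 of every 1000 CpGs in the table but took 1.56% of the 74636195 calls of the Dnmt1+/+ library and 1.5% of the 78401157 calls of the Dnmt1-/- library. The median deep CpG had 623 Dnmt1+/+ calls and 695 Dnmt1-/- calls, against 27 and 28 for the median comparison CpG. The deepest CpG reached 41488 Dnmt1+/+ calls and the Dnmt1-/- maximum was 34774. In all, 29 deep CpGs had over 10000 calls in both libraries and 313 had under 1000 in both. The 50 CpGs just inside the limit, whose lower depth was 300 to 329, averaged 63.4% in Dnmt1+/+ and 18.3% in Dnmt1-/-. The 94 just outside, at 270 to 299, averaged 46.8% and 18.7%.

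Whether these CpGs lie in collapsed repeats cannot be settled from the assembly, since a wholly collapsed repeat would occur once in it. The 50 bases centred on the CpG occurred more than once on the placed chromosomes for 194 of 517 deep CpGs (37.5%), against 7.60% of the comparison set. With 100 bases the share was 16.6% against 2.36%, and it was 53.6% against 12.7% when 50 bases were used and the sequence was read as bisulfite leaves it, with C as T. For the 323 remaining deep CpGs the 50 bases occurred once on the placed chromosomes, and for 7 of these they also occurred in unplaced sequence. By alignment, 71 of 100 clusters had 2 or more similar copies on the placed chromosomes and 29 had 1, of which 1 also had copies in unplaced sequence. A similar copy had to match most of the cluster, so a count of 1 does not show single-copy sequence. The tandem repeat clusters at chr2:98502421-98503014, chr2:98506419-98507483 and chr9:3035862-3036039 also counted 1. Yet the 50 bases around their CpGs occurred up to 18, 21 and 20 times, respectively. Deep CpGs were also close to the ends of assembled sequence: 43.3% lay within 100 kb of an assembly gap or chromosome end, against 1.38% of the comparison set.

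By the annotation, 41.6% of deep CpGs lay within 1 kb of a transcript start, 3.48% in exons, 21.3% in introns and 33.7% between genes. The comparison set had 32.2% near a transcript start, 8.59% in exons, 25.9% in introns and 33.3% between genes. Among other CpGs the shares near a start were closer, at 47.0% and 44.3%. The deep CpGs near starts averaged 58.0% in Dnmt1+/+ and 16.4% in Dnmt1-/-, while those of the comparison set averaged 27.4% and 18.7%. Among other CpGs the values near starts were 55.6% and 10.5% for deep CpGs and 13.6% and 5.44% for the comparison set. Deep CpGs near starts were thus the more methylated set in Dnmt1+/+.

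**Figure D1:**
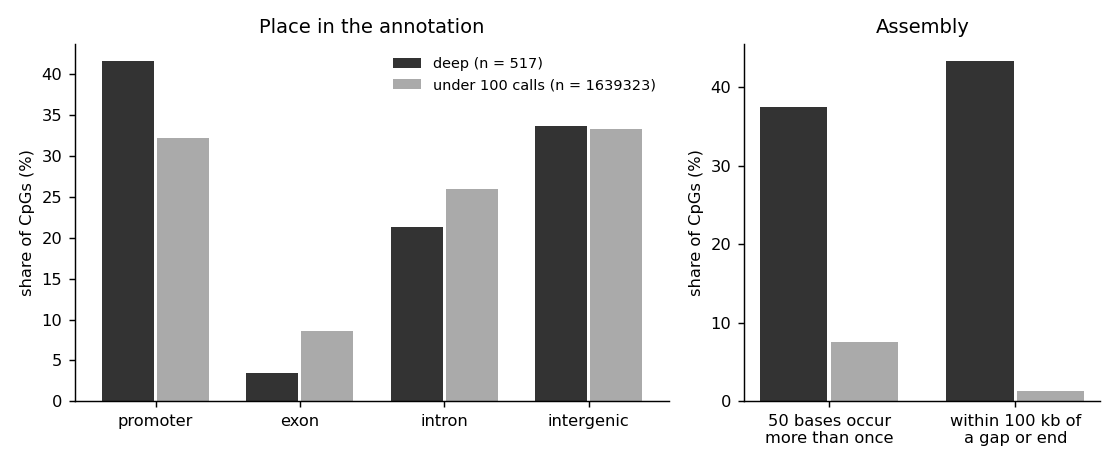
Share of deep CpGs (dark bars) and of CpGs with under 100 calls in both libraries (light bars), in percent, by place in the annotation and by 2 properties of the assembly. The sets are most unlike in the share within 100 kb of a gap or chromosome end, 43.3% against 1.38%, and in the share whose 50 bases recur, 37.5% against 7.60%, which with 100 bases was 16.6% against 2.36%.

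The deep CpGs were spread over 19 chromosomes, with 59 on chromosome 11, 58 on X, 57 on 9 and 56 on 2, and with 3 on chromosome 3. X held 11.2% of deep CpGs and 2.35% of the comparison set. Clusters were dense: 503 of the 517 had another deep CpG within 500 bp and 371 lay in the 38 clusters of 5 or more. The median cluster held 3 deep CpGs and the largest held 27. Neighbouring deep CpGs can share reads, so they are not independent of each other.

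Methylation of the deep CpGs was lower in Dnmt1-/- than in Dnmt1+/+. The Dnmt1+/+ mean of 61.6% stood against a Dnmt1-/- mean of 21.4%, which is -40.2 percentage points, and the medians were 78.4% and 7.46%. In the comparison set the means were 64.9% and 35.4%, or -29.5 points. The level depended on the depth limit: with 200 calls in place of 300, the 2340 CpGs that passed averaged 24.9% and 9.81%, a smaller difference than in the comparison set. Pooled over calls, the deep CpGs stood at 48.0% (95% Wilson interval 47.9% to 48.1%) in Dnmt1+/+ and at 20.7% (20.6% to 20.8%) in Dnmt1-/-. These intervals cover counting error only, since reads copied by PCR are not independent molecules.

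The sets also differed in their share of CCGG and TCGA positions, which made up 23.4% of deep CpGs and 47.0% of the comparison set. The 121 deep CpGs in CCGG or TCGA averaged 76.4% in Dnmt1+/+ and 52.7% in Dnmt1-/-, against 83.5% and 57.2% in the comparison set. The 396 other deep CpGs averaged 57.1% and 11.8%, so that 20.7% of the Dnmt1+/+ mean was left. Other CpGs of the comparison set averaged 48.5% and 16.1%, with 33.3% left. The medians of other CpGs in Dnmt1-/- were 4.84% for deep CpGs and 4.35% for the comparison set.

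The other CpGs were split by their level in Dnmt1+/+. Of the deep ones, 127 stood at 20% or less, 100 between 20% and 80%, and 169 at 80% or more. The 169 highly methylated ones averaged 92.2% in Dnmt1+/+ and 22.5% in Dnmt1-/-, and the Dnmt1-/- values had their median at 13.5%, between quartiles at 6.81% and 27.4%. The comparison CpGs at 80% or more averaged 94.6% and 31.8%, and the Dnmt1-/- median was 26.1%, between quartiles at 8.82% and 50%. In the middle class the deep CpGs averaged 61.5% and 6.54% and the comparison CpGs 55.5% and 14.5%. In both of these classes the deep CpGs stood lower in Dnmt1-/- than the comparison CpGs, a difference that was not tested. In the class at 20% or less the deep CpGs averaged 6.84% and 1.73% and the comparison CpGs 3.16% and 2.12%. There the Dnmt1-/- medians went the other way, at 1.46% for deep CpGs and 0% for comparison CpGs.

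Fisher's exact test (two-sided, on the calls of each CpG, with Benjamini-Hochberg adjustment over all 1790826 CpGs, adjusted p under 0.05) called 463 of 517 deep CpGs lower in Dnmt1-/- and 0 higher. Of all CpGs measured, 43.7% were called lower and 0.462% higher, and of the comparison set 45.2% and 0.347%. With a limit of 200 calls, 922 of 2340 (39.4%) were called lower and 22 higher, so that the share called lower then fell below that of all CpGs. This test compares the 2 libraries, and it finds smaller differences at greater depth. With every CpG scaled to 30 calls per library, 287 of 517 (55.5%) were called lower and 0 higher, against 39.7% and 0.201% of all CpGs and 41.7% and 0.187% of the comparison set. With a minimum difference of 25 points, 288 of 517 (55.7%) were called lower and 0 higher, against 40.3% and 0.25% of all CpGs and 42.4% and 0.232% of the comparison set. The deep CpGs not called were 36 in CCGG or TCGA and 18 others. The Dnmt1-/- value was the lower at all but 4 of the 396 other CpGs.

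**Figure D2:**
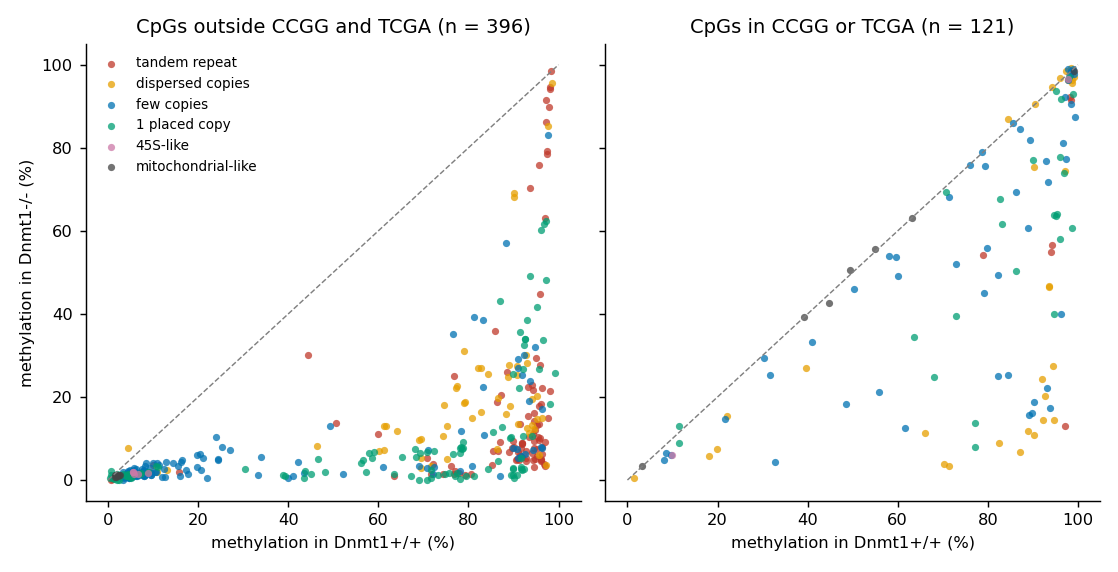
Methylation of each deep CpG in Dnmt1+/+ (horizontal axis, percent) and in Dnmt1-/- (vertical axis, percent), with 1 point per CpG, coloured by kind of sequence, and equality as a dashed line. The 396 other CpGs (left) lie mostly under 20% in Dnmt1-/-, with 9 at 80% or more, whereas the 121 in CCGG or TCGA (right) average 52.7% there.

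The clusters were sorted by sequence. The classes were 14 clusters of the tandem repeat (100 deep CpGs), 20 clusters of dispersed sequence with 20 or more similar copies on 10 or more chromosomes (87), 38 with few copies (178), 24 with 1 similar copy on the placed chromosomes (130), 1 like the 45S gene (7) and 3 like mitochondrial DNA (15). In tandem repeat clusters the other CpGs went from a Dnmt1+/+ mean of 86.2% to a Dnmt1-/- mean of 19%. Those of dispersed clusters averaged 75.7% and 19.3%, and those of 1-copy clusters 59.3% and 9.47%. Those of few-copy clusters averaged 31.3% and 6.35%. The lowest values were in the 45S-like cluster, at 6.49% and 1.68%, and in the mitochondrial-like clusters, at 1.99% and 1.08%.

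**Figure D3:**
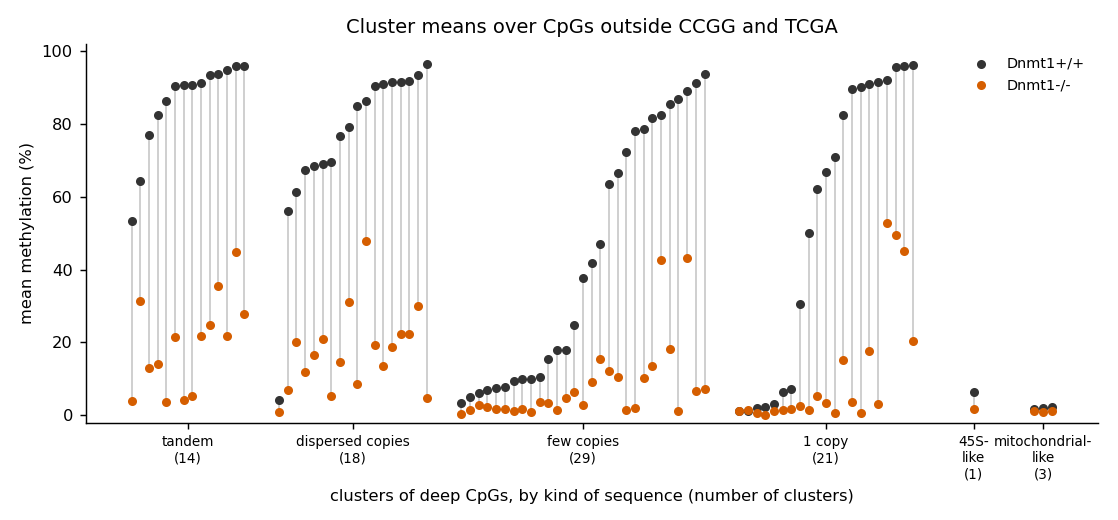
Mean methylation in percent over the other CpGs of each cluster that had any, in Dnmt1+/+ (dark) and Dnmt1-/- (orange), with clusters ordered by the Dnmt1+/+ mean within each kind of sequence. Tandem clusters start at 53.4% or more, and dispersed ones start high but for the lowest, at 4.09%, whereas few-copy and 1-copy clusters run from near 0 to above 90% in Dnmt1+/+.

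The tandem repeat has a unit of 234 bases, the length of the mouse major satellite unit, the DNA of pericentromeric chromatin. Over the 2000 bases around the printed unit, the sequence was 90.9% identical to itself shifted by 234 bases. Of the 100 deep CpGs in these clusters, 86 could be placed on the unit by a window at least 75% identical to it, 56 on its strand and 30 on the opposite one. They occupied 9 positions of the unit, counted from 1 at the first base printed above. The printed copy holds a CpG at 4 of them, namely 1, 13, 41 and 101.

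Retained methylation differed between positions of the unit. At position 101 the 9 deep CpGs ranged from 63.5% to 86.9% in Dnmt1+/+, with a median of 77.1%. In Dnmt1-/- they ranged from 0.989% to 9.26%, with a median of 1.5%. At position 13 the 14 deep CpGs had medians of 91.7% and 5.71%, and at position 41 the 14 had medians of 94.2% and 5.49%. At position 187 the 6 had medians of 92.4% and 8.68%, and at position 132 the 5 had medians of 96.0% and 18.3%. Among positions with 5 or more deep CpGs, position 101 thus had the lowest median in both libraries. The only deep CpG at position 129 was at 15.8% and 1.98%.

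The same order could be looked for in 202 CpGs on the unit that lay within 20 kb and were not deep. There the 27 CpGs at position 101 had medians of 77.8% in Dnmt1+/+ and 1.98% in Dnmt1-/-, although at 10 to 116 and 10 to 101 calls they ran from 0% to 100% in Dnmt1-/-. The 26 at position 13 had 92.9% and 6.67%, the 40 at position 41 had 94.7% and 7.78%, and the 16 at position 132 had 96.2% and 19.4%. By its median, position 101 was again the lowest of these 4 in both libraries. These CpGs come from the same libraries, and their reads come from the same kind of repeat, so they are not a replicate.

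In Dnmt1-/-, though not in Dnmt1+/+, position 1 had the widest range. Its 22 deep CpGs ran from 91.4% to 98.2% in Dnmt1+/+, but from 3.92% to 98.5% in Dnmt1-/-. Of the 22, 13 were at 20% or less and 7 at 50% or more in Dnmt1-/-. Neighbouring copies of the unit could stand at opposite ends. The CpG at chr9:3027616 was at 98.2% in Dnmt1+/+ (1019 calls) and 98.5% in Dnmt1-/- (1147 calls). The CpG 234 bases on, at chr9:3027850, was at 96.1% (977 calls) and 4.61% (1128 calls). Likewise, chr9:35113119 was at 98.1% and 94.7%, and chr9:35112885 at 91.8% and 8.86%. On the strand of the unit, position 1 reads TCGC, which is 1 base from TCGA, and all 22 of these CpGs had no measured neighbour within 40 bp on one side, whether high or low. The part of restriction ends in these values was not tested.

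**Figure D4:**
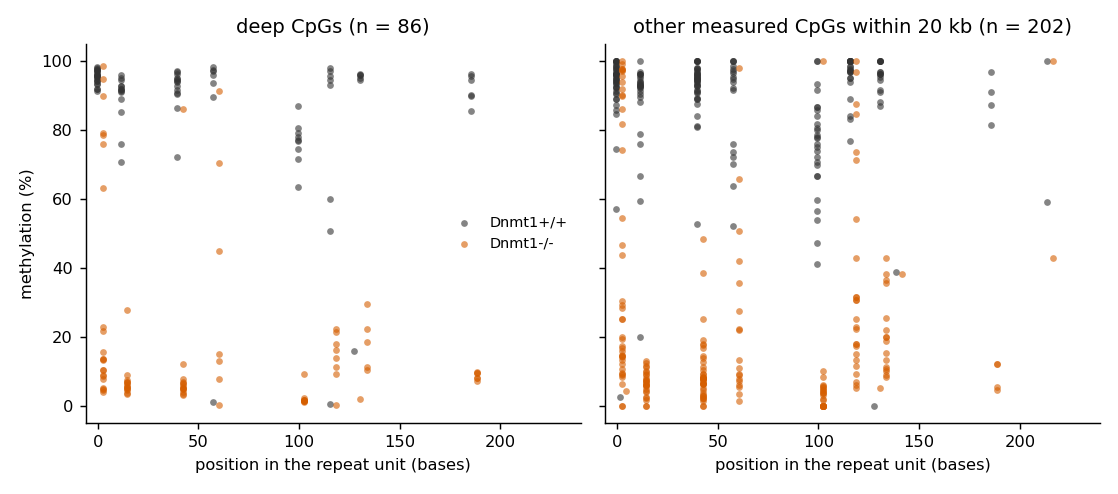
Methylation in percent against position in the 234-base unit for the 86 deep CpGs (left) and for 202 CpGs within 20 kb that were not deep (right), with Dnmt1+/+ dark and Dnmt1-/- orange, drawn side by side at each position. In deep CpGs the Dnmt1-/- values run from 0.989% to 9.26% at position 101 and from 3.92% to 98.5% at position 1, and in the others those at position 101 run from 0% to 100%, with a median of 1.98%.

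The cluster with most deep CpGs lay partly in this repeat, at chr2:98506419-98507483, over the predicted gene Gm10800, with 27 deep CpGs of which 21 could be placed on the unit. Its mean was 90.8% in Dnmt1+/+ and 25.5% in Dnmt1-/-, and 27 of 27 were called lower, where 98 of the 100 deep CpGs in tandem repeat clusters and 43.7% of all CpGs measured were. At chr2:98507264 the level was 77.9% of 19826 calls in Dnmt1+/+ and 1.62% of 24063 calls in Dnmt1-/-. At chr2:98507113 it was 94.2% of 17806 calls and 22.8% of 23296 calls. At chr2:98507306 it was 93.6% and 70.4%, although that CpG lies between neighbours at 1.62% and 12.1%. The levels in Dnmt1-/- therefore did not fall evenly along the cluster, while those in Dnmt1+/+ stayed between 70.9% and 98.2%.

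The second cluster on chromosome 2, chr2:98502421-98503014 in Gm10801, had 14 deep CpGs, 7 of them on the unit, with means of 78.3% and 18.9%. Gm10800 held 21 deep CpGs of 22 measured, Gm10801 held 14 of 25, and Gm10722, on chromosome 9, held 9 of 19. On chromosome 9, 10 clusters over 37.8 kb held 51 deep CpGs, with 85.4% in Dnmt1+/+ and 17.7% in Dnmt1-/- over other CpGs. The cluster at chr9:3000341-3001512 had 19 deep CpGs, at 84.2% and 18.2%, and the cluster at chr9:3037216-3038141 in Gm10715 had 8, at 95% and 21.9%. The CpGs of Gm10722 and Gm10715 that were not deep averaged 87.1% and 13.2%, and 90.9% and 20.4%, beside deep ones of the same genes at 89.7% and 15.7%, and 95% and 21.9%. In Gm10801 the 10 other CpGs that were not deep averaged 88.0% and 21.2%, and the 12 deep ones 76.9% and 13.0%. In Gm10800 the only CpG that was not deep was at 96.2% and 25.4%, and the 21 deep ones averaged 90.7% and 17.6%. The 5 measured CpGs of Gm10720 and the 4 of Gm10721 included no deep one.

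Within the same array some CpGs were free of methylation in both libraries. At chr9:3026796 the level was 0.585% of 1879 calls in Dnmt1+/+ and 0.119% of 2527 calls in Dnmt1-/-. Its neighbours at chr9:3026780 and chr9:3026811 were at 63.5% and 96.0% in Dnmt1+/+, and at 0.989% and 10.2% in Dnmt1-/-. A cytosine that a cell lacks, with thymine in its place, would also be read as unmethylated, and this was not tested.

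Other clusters combined great depth with little methylation outside CCGG and TCGA. The cluster at chr11:108873090-108873243, between genes, reached 15351 calls in Dnmt1+/+ and 14220 in Dnmt1-/-. Its 12 other CpGs had a Dnmt1+/+ mean of 6.25% and a Dnmt1-/- mean of 1.56%. The cluster at chr16:11144143-11144215, inside Zc3h7a at the start of mmu-mir-689-2, had 16 deep CpGs, and its other CpGs averaged 5.12% and 1.43%. The cluster at chr16:57391475-57391630, in an intron of Filip1l, had other CpGs at 7.56% and 1.58% on average. In the cluster at chr13:9833565-9833715, over mmu-mir-2134-4, they averaged 9.95% and 1.66%. Together with clusters on chromosomes 14, 17 and 18, these 7 clusters held 62 other CpGs, at 0.446% to 20.7% in Dnmt1+/+ and 0.407% to 3.6% in Dnmt1-/-. Their 15 CpGs in CCGG or TCGA averaged 55.1% and 53.3%.

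These low clusters had unlike numbers of copies. The bases around every deep CpG of the chromosome 11 cluster occurred once in the assembly, whereas the clusters on chromosomes 14 and 18 had 10 and 9 similar copies. The clusters on chromosomes 13 and chr16:11144143 shared an exact stretch of 37 bases in opposite orientation, and those at chr16:57391475 and on chromosome 18 shared 61 bases. A match to the large ribosomal RNA was not tested. After scaling by total calls, Dnmt1-/- depth over Dnmt1+/+ depth ran from 0.711 to 0.916 over the 7.

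The 45S-like cluster at chr6:3151422-3151496 was 97.4% identical to chromosome 17, with 3 of 115 bases different. Its 5 other CpGs had 5.44% to 8.91% in Dnmt1+/+ and 1.45% to 1.93% in Dnmt1-/-, at 3625 to 3646 and 2729 to 2750 calls. The 5 matching CpGs of chromosome 17 had far fewer calls, 45 to 82 in Dnmt1+/+, and stood at 39.0% to 64.4% in Dnmt1+/+ and 0% to 15.7% in Dnmt1-/-. At chr6:3151480 the level was 5.76% of 3646 calls in Dnmt1+/+ and 1.45% of 2750 in Dnmt1-/-, whereas at its partner chr17:39984336 it was 62.2% of 45 calls and 0% of 53. Reads placed on the 2 copies, which differ by so few bases, thus gave different levels in the same library. In the chromosome 17 stretch left out of the set, 324 CpGs had 300 or more calls in both libraries, and the 271 outside CCGG and TCGA had means of 6.31% and 1.29%.

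The mitochondrial-like clusters lay at chr2:22444105-22444382 and chr2:22445055-22445261, over Gm13340 in Myo3a, and at chr12:98299706-98299820. Their 8 other CpGs were at 1.58% to 2.65% in Dnmt1+/+ and averaged 1.08% in Dnmt1-/-. Of these 8, 5 (62.5%) were called lower, where 46.5% of other CpGs of the comparison set were. The 7 CpGs of these clusters in CCGG or TCGA averaged 50.6% in Dnmt1+/+ and 50.4% in Dnmt1-/-. Of these 7, 0 were called, where 43.8% of comparison CpGs in CCGG or TCGA and 43.7% of all CpGs measured were called lower. On chromosome 12 the CpGs of this kind at the ends of the cluster were at 3.16% and 99.2% in Dnmt1+/+ and at 3.46% and 98.4% in Dnmt1-/-. Between them, 3 other CpGs were at 1.61% to 2.24%. In these clusters the average in CCGG and TCGA thus stood above that of other CpGs, and the cause was not tested.

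At the distal end of the X chromosome, 6 clusters with 37 deep CpGs lay in 16.1 kb of Mid1, which encodes a microtubule-associated ubiquitin ligase and which in laboratory mice spans the boundary of the pseudoautosomal region. Mid1 had 291 measured CpGs. The clusters had 1 similar copy each on the placed chromosomes, which does not exclude shorter or more diverged copies. In them 37 of 37 CpGs were called lower, where 89.6% of all deep CpGs and 43.7% of all CpGs measured were. The cluster at chrX:166428059-166428196 fell from 89.7% to 3.53%, and that at chrX:166424792-166424814 had 70.8% and 0.723%. The largest, chrX:166435470-166435874, had 15 deep CpGs at 69.8% and 12.9%, or 66.8% and 3.37% without CCGG and TCGA.

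Other clusters of Mid1 kept more. The 2 deep CpGs of the first cluster, chrX:166419730-166420123, were at 87% and 97.2% in Dnmt1+/+ and at 43% and 62.5% in Dnmt1-/-. The second, chrX:166423055-166423105, had other CpGs at 33.7% to 60.2% in Dnmt1-/-. In the same 16.1 kb, the 78 CpGs of that kind that were not deep had means of 73.0% and 17%, beside 80.6% and 11.9% for the 33 deep ones. In the rest of Mid1, where the median depth was 32 calls over 74 other CpGs, the means were 67.8% and 17.2%.

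**Figure D5:**
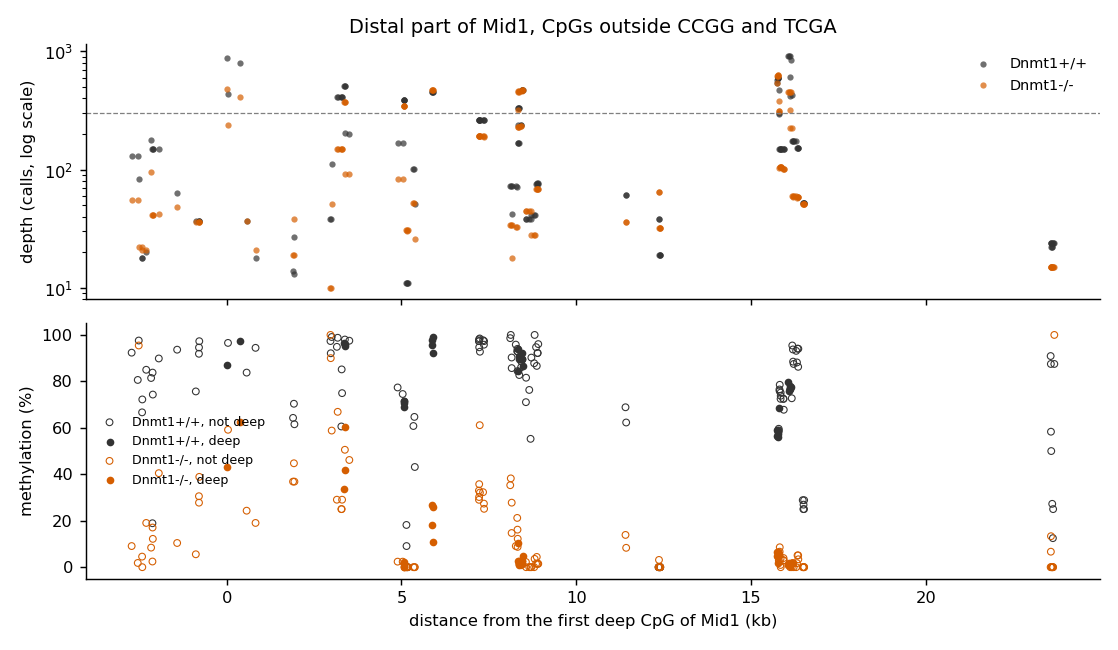
Depth in calls on a log scale (above, deep limit dashed) and methylation in percent (below) along the distal part of Mid1, by distance in kb from its first deep CpG, for CpGs outside CCGG and TCGA in Dnmt1+/+ (dark) and Dnmt1-/- (orange). Filled points below are deep CpGs, which fall from 80.6% to 11.9% on average but keep 43% and 62.5% at the left-most cluster.

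At the start of chromosome 11, 4 clusters with 34 deep CpGs lay in and beside Sfi1, which encodes a centrosomal protein. The cluster at chr11:3092905-3093631, over the start of Sfi1 and inside Drg1, had 25 deep CpGs and means of 83.8% and 25.7%, or 82.5% and 15% without CCGG and TCGA. In Dnmt1-/- its other CpGs ran from 0.486% to 49.0%. They stood at 0.983% at chr11:3093001, at 1.43% at chr11:3093388 and at 49.0% at chr11:3093476. Dnmt1+/+ levels at those CpGs were 67.2%, 74.9% and 93.7%. The lowest in both libraries was chr11:3093015, at 1.04% and 0.486%. The scaled depth ratio of this cluster, 1.58, was the highest of all clusters. In Sfi1 as a whole the 14 other deep CpGs averaged 78.9% and 7.10%, and the 25 that were not deep 79.1% and 26.9%.

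Clusters of 5 or more deep CpGs with the largest falls were at chr7:89920274-89920301 in Eftud1, at chrX:166428059-166428196 in Mid1, in Gm10715, at chr9:35112885-35113120 and at chr2:40440373-40440419. The Eftud1 cluster had 5 CpGs between 90.9% and 96.4% in Dnmt1+/+ and between 5.4% and 8.0% in Dnmt1-/-. No cluster of that size had a higher mean in Dnmt1-/-. The smallest falls were in 2 of the mitochondrial-like clusters, at chr17:36368220-36368273, and in the low clusters at chr16:11144143 and chr11:108873090. Over all sizes, 99 clusters had the lower mean in Dnmt1-/- and 1 the higher, namely the start of Smcr7l, with 2 CpGs at 1.28% and 1.32%.

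Among clusters of 5 or more at 80% or more in Dnmt1+/+, the highest Dnmt1-/- mean was 50.4%, at chr12:20239978-20240055. Its 4 other CpGs were at 76.7% to 88.3% in Dnmt1+/+ and at 35.1% to 57.1% in Dnmt1-/-. Next came chr11:3073805-3073937 in Sfi1, at 80.9% and 43%, and its 2 other CpGs averaged 84.9% and 8.58%. The cluster at chr5:58391836-58391887 in Pcdh7 had 90.4% and 35.7%, the one at chr6:47689679-47689770 had 86.3% and 28.8%, and the one at chr2:40440373-40440419 had 93.7% and 26.9%. Without CCGG and TCGA these Dnmt1-/- means were 42.5% on chromosome 12, 22.3% in Pcdh7, 18.2% on chromosome 6 and 30.1% on chromosome 2, so the order of the clusters was then another. CpGs at 50% or more in Dnmt1-/- were few: 20 of the 396 other CpGs, of which 9 were at 80% or more. Of the 20, 13 lacked a measured neighbour within 40 bp on one side, against 94 of the 376 below 50%.

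Some pairs of repeat copies, picked after their values were seen, stood close together, unlike the tandem unit at position 1 and the 45S-like pair above. In the dispersed cluster at chr14:88250510-88250757, 4 CpGs recurred 201 bases on. The CpGs at chr14:88250539 and chr14:88250740 had 82.2% and 82.7% in Dnmt1+/+, and 27.03% and 26.97% in Dnmt1-/-. The CpGs at chr14:88250555 and chr14:88250756 had 90.04% and 90.06% in Dnmt1+/+, and 68.1% and 69.1% in Dnmt1-/-. In a local array on chromosome 6, 8 clusters with 27 deep CpGs lay over 110 kb, and the clusters at chr6:47689679 and chr6:47728046 shared 192 exact bases. The CpGs at chr6:47689707 and chr6:47728074 had 94.8% and 92.3% in Dnmt1+/+ and 31.9% and 30.1% in Dnmt1-/-. Those at chr6:47689748 and chr6:47728115 had 72.3% and 70.8% in Dnmt1+/+ and 3.10% and 2.90% in Dnmt1-/-. Where the bases recur, a read can fit several places, so these values may share reads.

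Deep clusters at known genes were methylated to different degrees. At Fcgr3, which encodes an Fc receptor, 10 other CpGs had a mean of 10.1% in Dnmt1+/+ and of 0.821% in Dnmt1-/-. On chromosome 8, 6 clusters over 186 kb around Gm10060 and 2610005L07Rik held 17 other CpGs with a mean of 32.4% and 4.4%. The cluster at chr8:19785075-19785176 there had 13 deep CpGs at 24.3% and 12.3%, or 17.9% and 4.83% without CCGG and TCGA. The start of 3110070M22Rik, 6.76 kb from the end of the assembled chromosome 13, had 19 deep CpGs at 62.8% and 5.54%. At Dux, which encodes a double homeobox protein of the early embryo, the 2 other CpGs averaged 78.7% and 10.1%, and all 4 deep CpGs 72.2% and 30.8%. The starts of Sgpl1, H2afy and Smcr7l were low in both, at 1.21%, 1.94% and 1.28% in Dnmt1+/+ and 1.04%, 0.667% and 1.32% in Dnmt1-/-.

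Between consecutive other CpGs of a cluster (310 pairs), the median absolute step was 3.12 points in Dnmt1+/+ and 1.86 points in Dnmt1-/-, and 9.35% and 9.03% of steps exceeded 25 points. In the 24 clusters with 5 or more other CpGs, the median range was 18.4 points in Dnmt1+/+ and 9.09 points in Dnmt1-/-. The range was over 50 points in 7 of them in Dnmt1+/+ and in 5 in Dnmt1-/-. Neighbouring CpGs can share reads, and how far they did was not measured.

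The rule asked for depth in both libraries, so a stretch deep in only one of them could not enter and the depth ratio is a description of what the rule kept. After scaling by total calls, the ratio of Dnmt1-/- to Dnmt1+/+ depth had a median of 1.02 over clusters, and 92 of 100 were within 1.5 times. The lowest were 0.450 near Clcn4-2 at chr7:7230845-7230888, 0.462 at the Eftud1 cluster, 0.472 at chr15:74916242 and 0.510 at the first Mid1 cluster. The Eftud1 cluster had a median of 1031 Dnmt1+/+ calls and of 500 Dnmt1-/- calls. Among clusters of 5 or more CpGs, the next lowest were chr16:57391475-57391630 at 0.711 and the largest Mid1 cluster at 0.714, and the highest after Sfi1 were chr14:88250510-88250757 at 1.54 and chr2:40440373-40440419 at 1.42. Copy number in the cells and the number of reads per copy cannot be told apart, and no second library shows whether these ratios recur.

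Of the other loci looked up by name, Pisd-ps1 held 2 deep CpGs of 9 measured, while the 11 measured CpGs of n-R5s genes and the 36 of U1 genes included none.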

How the data were processed

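CpG methylation was measured by extended-coverage RRBS in 1 library of Dnmt1+/+ MEFs and 1 of Dnmt1-/- MEFs, grouped by the genotype in the labels. A sequencing provider did quality control, read processing and mapping to mm9. The submitters' processing notes name Bismark with no version. Enzymes, conversion rate and the treatment of reads that fit several places are not given in the sources used here. The depth the authors deposited is a count of methylation calls per CpG, and they kept CpGs with at least 10 calls in both libraries. The deposited percent is methylated calls over all calls. Percent times depth was whole, within 0.01 calls, at 100% of CpGs.

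Members were taken by depth (300 or more calls in both) and joined at 500 bp. Two-sided Fisher's exact tests on calls were adjusted by Benjamini-Hochberg over all CpGs (threshold 0.05). The script was tested on simulated data. Location came from GENCODE vM1 and sequence from NCBIM37. Exact copies of the 50 bases around each CpG were counted on both strands of the placed chromosomes. Similar copies were blastn matches of at least 90% identity over 80% of a cluster with 50 bp either side. Clusters counted as mitochondrial-like or 45S-like at 95% identity over 80% of their length, against the mitochondrial genome and the chromosome 17 stretch left out. Those with a window at least 75% identical to the 234-base unit were tandem repeats, and the rest were sorted by similar copies. The authors' table holds no fold or p-value columns.

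Named clusters were the 10 with most deep CpGs and, among those with 5 or more, the 5 with the largest falls, rises, retained levels and summed depths, and the 3 with the most extreme depth ratios each way. None rose, so the 5 smallest falls are given. A list of repeat-associated genes was also looked up: Pisd-ps3, Erdr1, Asmt, Rn45s, Rn18s, Rn4.5s, Ssty1, Ssty2 and Sly had no entry under those names in the annotation, and no CpG of Rbmy1a1 or U2 was measured. Members and lists were chosen with earlier results of these data known, and the sequence classes, the unit positions and other clusters named were chosen after the values were seen. At a depth of 300 calls the counting error is small, but no spread between samples can be given. The software was blastn 2.17.0, pysam 0.24.0, matplotlib 3.10.9, scipy 1.17.1, pandas 2.3.3, numba 0.67.0 and numpy 2.4.6 under Python 3.11.15.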

Additional observations from a re-analysis of the deposited data

How the results depend on the processing

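No paired analysis was possible because there was 1 library per genotype, which leaves no pairs of replicates. In every alternative run the mean of the deep CpGs was lower in Dnmt1-/-. With at least 200, 500 or 1000 calls, the means were 24.9%, 55.4% and 47.5% in Dnmt1+/+ and 9.81%, 20.3% and 19.9% in Dnmt1-/-, so the level in Dnmt1+/+ depended strongly on the depth limit. The means were 57.1% and 11.8% without CCGG and TCGA, 50.6% and 9.66% when CpGs with no measured neighbour within 40 bp on one side were left out too (added after the data were seen), and 43.3% and 16.8% with the chromosome 17 stretch kept. They were 48.0% and 20.7% with calls pooled and 64.0% and 25.5% with each cluster counted once. On autosomes they were 59.4% and 21.5%. The comparison set gave 69.9% and 37.1% at under 50 calls, 48.5% and 16.1% without CCGG and TCGA, and 57.9% and 33.5% with calls pooled.

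Lower calls numbered 922 of 2340 deep CpGs (39.4%) at 200 calls, 288 of 316 at 500, 156 of 175 at 1000 and 758 of 841 with the chromosome 17 stretch. They were 288 with a minimum of 25 points and 287 with 30 calls per CpG. There were 22 higher calls at 200 calls and 0 under every other alternative run. Promoters of 500 bp gave 32.7% near starts, 7.35% in exons and 25.9% in introns, and leaving out CCGG and TCGA gave 47.0% near starts and 28.5% between genes. The share whose sequence recurs was 46.4% with 36 bases, 16.6% with 100 bases, 53.6% as bisulfite leaves it and 64.4% by similar copies of the cluster (added after the data were seen). The 24 named clusters were lower in Dnmt1-/- under each alternative run, and 60 of their 96 recomputed means lay outside the counting interval.

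No spread between samples can be given with 1 library per genotype, and how reads were placed among copies was not measured.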
